A study of Homo sapiens with 12 samples.

Results

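The nuclear and mitochondrially encoded respiratory chain genes described here are 49 genes taken by symbol from a table of 58037 gene rows. They comprise 16 nuclear genes of complex I, 4 of complex II, 7 of complex III, 9 of complex IV and 13 protein-coding genes of the mitochondrial genome. The rule uses symbols alone and no expression value. All 49 genes were found and all 49 passed the filter on low counts in every comparison.

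RNA was sequenced in 12 libraries of BT-549 and SUM149, established human cell lines of triple-negative breast cancer, which lacks estrogen receptor, progesterone receptor and HER2 amplification. The groups were BT-549 with MUC1shRNA, a short hairpin RNA that silences MUC1-C, BT-549 with CshRNA, a control hairpin, SUM149 with MUC1shRNA, and SUM149 with CshRNA, with 3 libraries in each. No age or strain applies to these cultures, and the time from introduction of the hairpin to harvest is not given in the labels used here. No agent other than the hairpins is named. A second label of the BT-549 CshRNA samples reads vector, and whether a hairpin was present in them is not given. BT-549 was grown in RPMI1640 with serum and insulin, and SUM149 in Ham's F-12 with less serum, insulin, hydrocortisone and HEPES. RNA came from triplicate cultures, and the labels do not say whether these were separate introductions of the hairpin, so p-values measure the spread between these cultures, which may be technical. The series is about MUC1-C and the NuRD chromatin complex, and the comparisons ask how respiratory chain transcripts stood after MUC1 silencing in each line.

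The respiratory chain passes electrons from NADH and succinate to oxygen and pumps protons across the inner mitochondrial membrane. Complex I oxidises NADH, complex II oxidises succinate, complex III moves electrons from ubiquinol to cytochrome c, and complex IV, cytochrome c oxidase, reduces oxygen to water. Complexes I, III and IV are built from subunits of both genomes: the mitochondrial genome encodes the core of the membrane parts, and nuclear genes encode the other subunits, which are imported as proteins. Mitochondrial mRNAs are cut from long precursors that each span many genes, so their amounts also depend on processing and stability.

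Levels are library-scaled counts (CPM, counts per 1e6) on 1 TMM scale over the 12 libraries, and each comparison was tested with edgeR's quasi-likelihood test with Benjamini-Hochberg adjustment over all genes tested; a gene is called higher or lower at an adjusted p below 0.05. Each log2 fold change sets MUC1shRNA over CshRNA unless another pair is named. MUC1 stood at 3.60, 6.01 and 4.28 CPM in BT-549 MUC1shRNA, against 51.9, 53.6 and 54.2 CPM in BT-549 CshRNA, and at 1.06, 0.334 and 0.481 CPM in SUM149 MUC1shRNA, against 16.4, 16.6 and 12.1 CPM in SUM149 CshRNA. Library totals ran from 7931614 to 24140623 counts, and the SUM149 MUC1shRNA libraries, with at most 9623924, were each shallower than any SUM149 CshRNA library. Within their groups, BT-549 CshRNA 3 and SUM149 CshRNA 3 were the farthest from the other CshRNA libraries, with a chi-square per degree of freedom of 10.6 to 14.5, while the other CshRNA pairs were at 4.43 in BT-549 and 3.80 in SUM149. BT-549 MUC1shRNA 2 was at 8.53 and 8.34 against its replicates, which were at 1.85 against each other. The estrogen receptor gene ESR1 stood at 0 to 5.01 CPM in all libraries. ERBB2, the HER2 gene, had 697 to 942 counts per BT-549 library and 306 to 1607 per SUM149 library. PGR had 0 to 2 counts in every library but SUM149 CshRNA 3, which had 34. The epithelial marker EPCAM stood at 381 to 455 CPM in SUM149 and at most 0.63 CPM in BT-549. KRT5 and CDH1, also epithelial, had at most 323 and 33 counts per BT-549 library and at least 1165 and 1840 per SUM149 library. The mesenchymal marker VIM stood at 1430.1 to 1625 CPM in BT-549 and at most 35.8 CPM in SUM149. CDH2 and SPARC, also mesenchymal, had 3171 to 4921 and 21009 to 41376 counts per BT-549 library. Per SUM149 library they had 441 to 1410 and 0 to 20. FN1, another mesenchymal marker, stood at 1701 to 2467 CPM in BT-549 MUC1shRNA and 1475 to 1831 CPM in BT-549 CshRNA. In SUM149 it stood at 2946 to 3314 CPM with MUC1shRNA, against 735 to 827 CPM with CshRNA. KRT8, another epithelial marker, had 5736, 4204 and 4537 counts in BT-549 MUC1shRNA and 812, 651 and 861 in BT-549 CshRNA. Its SUM149 libraries had 4647 to 14804 counts. The part of FN1 and KRT8 in the results was not tested. Among the leukocyte and endothelial markers reported here, CD3E was at 0 in all libraries, and PECAM1 was the only one above 5 CPM, at 8.95 to 10.5 CPM in SUM149 MUC1shRNA and 26.0 to 29.8 CPM in SUM149 CshRNA. The leukocyte marker CD14 had 12 to 20 counts per BT-549 library and 18 to 129 per SUM149 library. CORO1A, also a leukocyte marker, had 36 to 90 and 22 to 79.

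In BT-549, MUC1 silencing was accompanied by few and small changes in nuclear respiratory genes: 8 of 36 were called, 5 higher and 3 lower, where 33.3% of all 13200 genes tested were called (16.8% higher and 16.5% lower). Their median log2 fold change was 0.016, against -0.0053 over all genes tested, and the 36 values lay between -0.32 and 0.34. In SUM149, 15 of 36 were called, 6 higher and 9 lower, where 56.5% of all 14178 genes were called (27.6% higher and 28.9% lower). The SUM149 median was -0.065, against -0.034 over all genes, and the range was -0.57 to 0.81. In both lines the share of nuclear genes called was below the share over all genes. Medians in BT-549 and SUM149 were -0.010 and -0.064 for complex I, 0.051 and -0.076 for complex II, 0.071 and -0.12 for complex III, and 0.070 and -0.058 for complex IV. COX7C, NDUFB3 and NDUFA2 were called higher in both lines, and CYC1 was called lower in both. These 4 are 50% of the nuclear calls in BT-549 and 26.7% of those in SUM149. Over 12125 genes tested in both lines, genes called in both were 62.6% of the BT-549 calls and 36.6% of the SUM149 calls, 1343 in the same and 1204 in opposite directions.

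**Figure D1:**
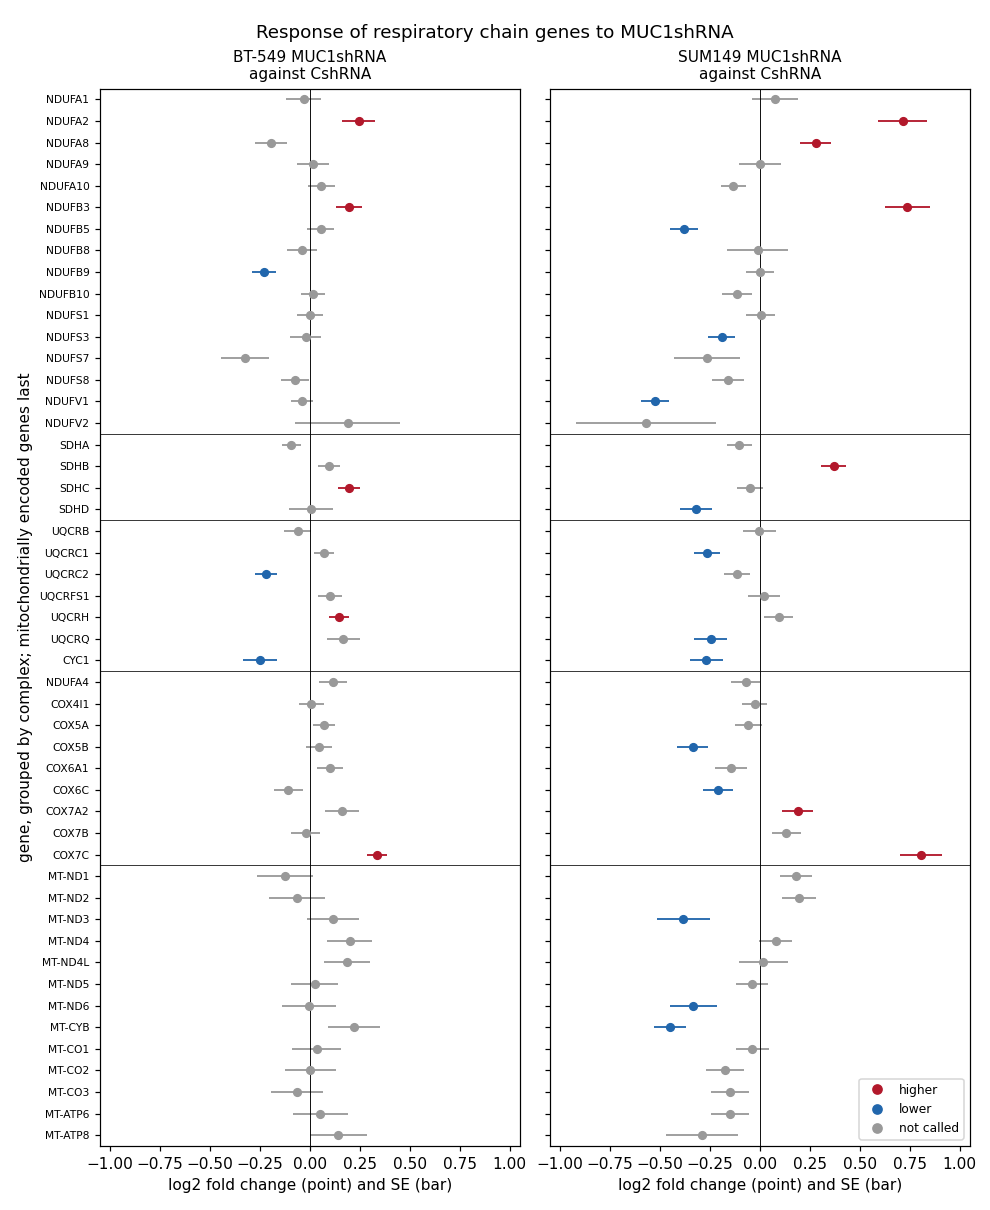
Log2 fold change (horizontal axis) of each of the 49 genes, grouped by complex with the mitochondrially encoded genes last, in BT-549 (left) and SUM149 (right); points are fitted values, bars are SE, and colours show the edgeR call. In BT-549 all points lie between -0.32 and 0.34, while in SUM149 COX7C, NDUFB3 and NDUFA2 lie between 0.71 and 0.81 and NDUFV1 at -0.53.

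**Figure D2:**
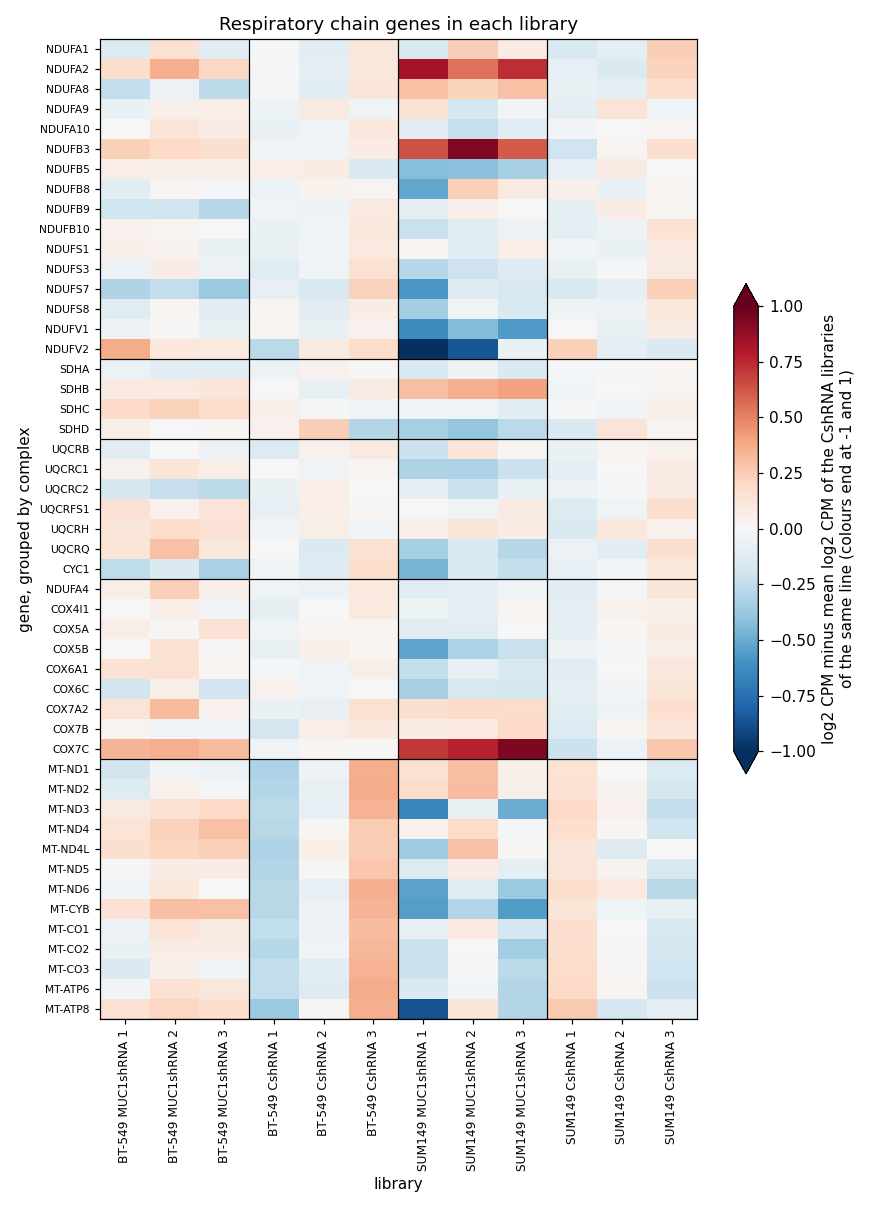
Level of each gene in each of the 12 libraries as log2 CPM minus the mean log2 CPM of the 3 CshRNA libraries of the same line. The rows of NDUFA2, NDUFB3 and COX7C are higher in all 3 SUM149 MUC1shRNA libraries than in the SUM149 CshRNA libraries, and the mitochondrially encoded rows are high together in BT-549 CshRNA 3.

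Only COX7C kept its BT-549 call when each library was left out in turn and under the other settings tried, while 10 of the 15 SUM149 calls did (NDUFA2, NDUFA8, NDUFB3, NDUFB5, NDUFV1, SDHB, SDHD, UQCRC1, COX5B and COX7C). Without BT-549 MUC1shRNA 1 there were 2 nuclear calls in that line, and without BT-549 MUC1shRNA 3 there was 1. Without BT-549 CshRNA 1 there were 4.

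Complex I is described from its NADH-oxidising tip to its membrane arm. NDUFV1, the subunit that binds NADH and flavin mononucleotide, stood at 139.9, 160.2 and 146 CPM in SUM149 MUC1shRNA, against 216, 205 and 228 CPM in SUM149 CshRNA. The groups did not overlap, and the log2 fold change was -0.53 (SE 0.07, adjusted p = 3.1e-05). In BT-549 it stood at 144, 149.8 and 141 CPM with MUC1shRNA and 152, 141 and 153 CPM with CshRNA, groups that overlapped, and the fold change was -0.04 (SE 0.06, adjusted p = 0.61). NDUFA2, an accessory subunit beside the NADH-oxidising module, moved the other way in SUM149. It stood at 20.9, 17.1 and 19.6 CPM in SUM149 MUC1shRNA, against 11.1, 10.6 and 13.7 CPM in SUM149 CshRNA, without overlap, a fold change of 0.71 (SE 0.12, adjusted p = 2.5e-04). In BT-549 it stood at 38.2, 43.5 and 38.9 CPM with MUC1shRNA and 33.2, 31.6 and 36.5 CPM with CshRNA, also without overlap, with a fold change of 0.24 (SE 0.08, adjusted p = 0.044). That BT-549 call ended without any 1 of 5 of the 6 libraries, with adjusted p up to 0.13, and 13% of the exon bases of NDUFA2 overlap IK or TMCO6 on the other strand, whose reads could count for it if strand was not used.

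NDUFS3, a core subunit of the module that hands electrons to ubiquinone, was called lower in SUM149 at -0.19 (SE 0.07, adjusted p = 0.03). Its levels were 79.6, 83.9 and 88.4 CPM in SUM149 MUC1shRNA and 92.1, 95.8 and 103 CPM in SUM149 CshRNA. These groups did not overlap, but the call ended without any 1 of 5 of the 6 libraries, and NDUFS3 shares 19.7% of its exon bases with PTPMT1 on the same strand. The core subunits NDUFS1, NDUFS7 and NDUFS8 were called in neither line. NDUFS7 had fitted values of -0.32 (SE 0.12) in BT-549 and -0.27 (SE 0.16) in SUM149, at only 5.54 to 17.5 CPM, and overlaps other genes over 49.1% of its exon bases on the opposite strand. NDUFV2, which carries an iron-sulfur cluster next to the flavin, had 4 to 31 counts per library and fitted values of 0.19 (SE 0.26) in BT-549 and -0.57 (SE 0.35) in SUM149. AP005263.1 overlaps 28.4% of its exon bases on the same strand and the pseudogene NDUFV2P1 held 61.2% as many counts, so the level of NDUFV2 is uncertain.

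In the membrane arm, NDUFB3, an accessory subunit of the distal part, was called higher in both lines. It stood at 33.4, 40.9 and 32.8 CPM in SUM149 MUC1shRNA, against 18.8, 22.0 and 24.1 CPM in SUM149 CshRNA, without overlap, a fold change of 0.74 (SE 0.11, adjusted p = 9.4e-05). In BT-549 it stood at 45.1, 43.8 and 42.6 CPM with MUC1shRNA and 37.3, 37.3 and 40.2 CPM with CshRNA, again without overlap, at 0.19 (SE 0.07, adjusted p = 0.045). The BT-549 call ended without any 1 of 5 of the 6 libraries and under 5 of 11 other settings, and FAM126B overlaps 19.8% of the exon bases of NDUFB3 on the other strand. NDUFB5, a neighbour in the same part of the arm, fell in SUM149. Its levels were 84.2, 84.3 and 89.5 CPM in SUM149 MUC1shRNA, against 107, 119.6 and 112 CPM in SUM149 CshRNA, without overlap, a fold change of -0.38 (SE 0.07, adjusted p = 3.7e-04). NDUFA8, an accessory subunit facing the intermembrane space, was called higher in SUM149 at 0.28 (SE 0.08, adjusted p = 0.0076), with 108, 104 and 108 CPM in MUC1shRNA and 83.9, 82.6 and 100.0 CPM in CshRNA and no overlap. In BT-549 the NDUFA8 groups overlapped, and the fold change was -0.19 (SE 0.08, adjusted p = 0.089). NDUFB9, an accessory subunit of the distal membrane arm, was called lower in BT-549 at -0.23 (SE 0.06, adjusted p = 0.015), with 140.0, 141 and 132 CPM in MUC1shRNA and 157, 156 and 171 CPM in CshRNA. Those groups did not overlap, and the call ended without MUC1shRNA 1 (adjusted p = 0.052) or MUC1shRNA 3 (adjusted p = 0.075). The other accessory subunits, NDUFA1, NDUFA9, NDUFA10, NDUFB8 and NDUFB10, were called in neither line, with fitted values between -0.13 and 0.07.

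Complex II, succinate dehydrogenase, is encoded in the nucleus alone. SDHB, its iron-sulfur subunit, stood at 183, 190.1 and 196 CPM in SUM149 MUC1shRNA, against 146, 148 and 151 CPM in SUM149 CshRNA. No library of one arm overlapped the other, and the log2 fold change was 0.37 (SE 0.06, adjusted p = 1.9e-04). SDHD, a membrane anchor, moved the other way there, with 66.0, 63.8 and 69.2 CPM in SUM149 MUC1shRNA and 74.9, 91.0 and 84.8 CPM in SUM149 CshRNA, a fold change of -0.32 (SE 0.08, adjusted p = 0.0042). SDHC, the other anchor, was called in BT-549 alone, at 0.20 (SE 0.05, adjusted p = 0.021), with 71.4, 73.2 and 70.9 CPM in MUC1shRNA and 64.8, 61.8 and 61.0 CPM in CshRNA and no overlap. The SDHC call ended when BT-549 CshRNA 2, MUC1shRNA 1 or MUC1shRNA 3 was left out, with adjusted p up to 0.073. SDHA, the flavoprotein that oxidises succinate, was called in neither line, at -0.09 (SE 0.05) in BT-549 and -0.10 (SE 0.06) in SUM149. Its pseudogenes held 3.03% as many counts as SDHA itself.

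Of the 7 complex III genes, 1 was called higher and 2 lower in BT-549, where 33.3% of all genes were called, and 3 were called lower in SUM149, where 56.5% were. All 3 BT-549 calls ended when single libraries were left out. CYC1, cytochrome c1, was called lower in both lines. It stood at 211, 227 and 201 CPM in BT-549 MUC1shRNA, against 244, 229 and 284 CPM in BT-549 CshRNA, at -0.25 (SE 0.08, adjusted p = 0.043). In SUM149 it stood at 119, 148 and 140.2 CPM with MUC1shRNA and 156, 162 and 177 CPM with CshRNA, at -0.27 (SE 0.08, adjusted p = 0.013). In neither line did the groups overlap. The BT-549 call ended without CshRNA 1, CshRNA 3, MUC1shRNA 1 or MUC1shRNA 3, and its fold change without CshRNA 3 was -0.15. The SUM149 call ended without MUC1shRNA 1 (adjusted p = 0.073).

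The core proteins of complex III, which anchor it on the matrix side, were each called in 1 line. UQCRC2 fell in BT-549 to 218, 208 and 204 CPM in MUC1shRNA, against 233, 255 and 245 CPM in CshRNA, at -0.22 (SE 0.05, adjusted p = 0.013). That call ended without MUC1shRNA 3 (adjusted p = 0.066). UQCRC1 fell in SUM149 to 155, 155 and 165 CPM in MUC1shRNA, against 180.1, 192 and 203 CPM in CshRNA, at -0.26 (SE 0.07, adjusted p = 0.004). Neither pair of groups overlapped. UQCRQ, a small accessory subunit, was lower in SUM149 at -0.25 (SE 0.08, adjusted p = 0.022), a call that ended without any 1 of 3 of the 6 libraries, and 20.8% of its exon bases lie opposite GDF9. UQCRH, the hinge protein that helps cytochrome c1 meet cytochrome c, was called higher in BT-549 at 0.15 (SE 0.05, adjusted p = 0.049), and this call ended without any 1 of 5 of the 6 libraries. UQCRFS1, the Rieske iron-sulfur protein, and UQCRB were called in neither line.

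Among the 36 nuclear genes listed, COX7C of complex IV had the largest fitted rise in each line. COX7C, a small subunit of the outer shell of cytochrome c oxidase (ENSG00000127184.11, GRCh38 chromosome 5, 86617904 to 86620962, plus strand), stood at 128, 133 and 149 CPM in SUM149 MUC1shRNA, against 67.4, 75.0 and 94.3 CPM in SUM149 CshRNA. The log2 fold change was 0.81 (SE 0.11, adjusted p = 2.4e-05). In BT-549 it stood at 259.5, 264 and 256 CPM with MUC1shRNA and 201, 208 and 207 CPM with CshRNA, at 0.34 (SE 0.05, adjusted p = 7.4e-04). Neither line's groups overlapped, and leaving out any library left the call in place, with fold changes of 0.70 to 0.94 in SUM149 and 0.32 to 0.35 in BT-549. COX5B, a zinc-binding subunit on the matrix side, fell in SUM149 to 56.6, 65.3 and 69.7 CPM in MUC1shRNA, against 78.7, 81.1 and 84.9 CPM in CshRNA, at -0.34 (SE 0.08, adjusted p = 0.0026). COX6C was also lower there at -0.21 (SE 0.08, adjusted p = 0.031), a call that ended without any 1 of 3 libraries. COX7A2, the widely expressed isoform of subunit VIIa, was called higher in SUM149 at 0.19 (SE 0.08, adjusted p = 0.048) although its groups overlapped (117, 119 and 119 CPM in MUC1shRNA and 96.3, 101 and 117 CPM in CshRNA), and that call ended without any 1 of 5 of the 6 libraries. COX4I1, COX5A, COX6A1 and COX7B were called in neither line.

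NDUFA4, once assigned to complex I and now placed in complex IV, was called in neither line, at 0.12 (SE 0.07, adjusted p = 0.23) in BT-549 and -0.07 (SE 0.07, adjusted p = 0.41) in SUM149. Both of its paralogs were called in SUM149. C15orf48, a protein that can take the place of NDUFA4 in cytochrome c oxidase, stood at 6.84, 5.01 and 6.16 CPM in SUM149 MUC1shRNA, against 0.345, 0.142 and 0.319 CPM in SUM149 CshRNA. Those levels rest on 58, 45 and 64 counts in MUC1shRNA and on 9, 3 and 7 counts in CshRNA. Without overlap between the arms, the log2 fold change was 4.43 (SE 0.30, adjusted p = 6.6e-08). In BT-549, C15orf48 stood at 10.8, 14.1 and 9.69 CPM with MUC1shRNA and 8.45, 10.2 and 8.55 CPM with CshRNA, groups that overlapped, at 0.35 (SE 0.15, adjusted p = 0.1). The exons of C15orf48 overlap AC025580.2 and MIR147B on the same strand. NDUFA4L2, a paralog known from hypoxia, had 0, 2 and 1 counts in SUM149 MUC1shRNA, against 38, 34 and 16 counts in SUM149 CshRNA. Scaled to the summed library totals, the ratio of the 3 counts to the 88 counts was 0.083, with an exact 95% interval of 0.0168 to 0.251 that covers counting error only. edgeR called NDUFA4L2 lower (adjusted p = 4.4e-04). In BT-549 it stood at 1.49, 1.3 and 1.54 CPM with MUC1shRNA and 0.895, 0.729 and 1.25 CPM with CshRNA, without overlap, and was not called, at 0.56 (SE 0.26, adjusted p = 0.13).

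**Figure D3:**
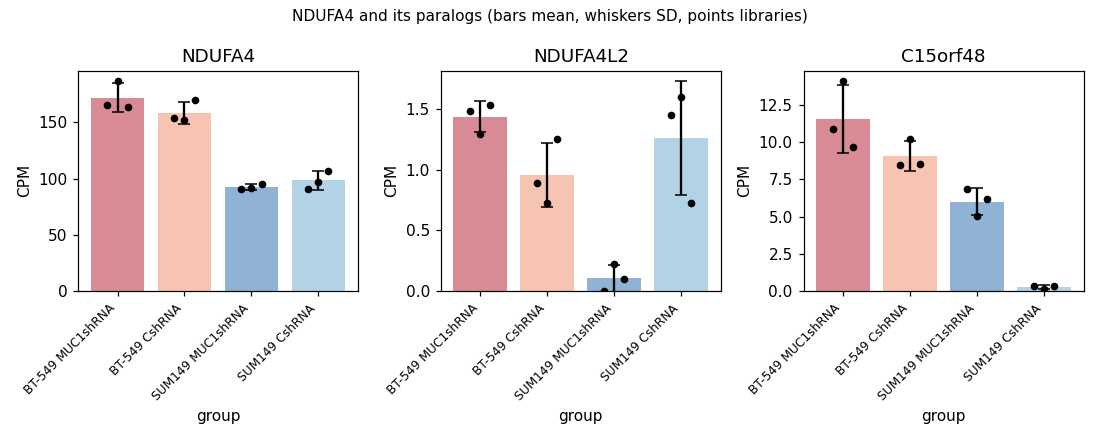
Level in CPM (vertical axes, separate scales) of NDUFA4, NDUFA4L2 and C15orf48 in the 4 groups; bars are means of 3 libraries, whiskers are SD and points are libraries. C15orf48 lies between 5.01 and 6.84 CPM in SUM149 MUC1shRNA and at most 0.34 CPM in SUM149 CshRNA, while NDUFA4 overlaps between the arms of SUM149.

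Promoter sequences are shown for COX7C and NDUFB3, which rose in both lines, and for SDHB and UQCRC1, which moved in opposite directions in SUM149. Each window runs from 250 bases before to 50 bases after the RefSeq transcription start on GRCh38.p14, and capitals mark matches to the motifs searched for NRF1 and YY1, transcription factors known to bind promoters of respiratory genes.
COX7C (chr5:86617691-86617990, plus strand): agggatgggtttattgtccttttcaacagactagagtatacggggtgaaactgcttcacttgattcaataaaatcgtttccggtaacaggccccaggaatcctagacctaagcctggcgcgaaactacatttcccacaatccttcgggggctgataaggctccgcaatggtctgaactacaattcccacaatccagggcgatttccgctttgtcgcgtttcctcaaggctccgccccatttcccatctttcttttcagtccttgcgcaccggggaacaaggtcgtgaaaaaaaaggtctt
NDUFB3 (chr2:201071751-201072050, plus strand): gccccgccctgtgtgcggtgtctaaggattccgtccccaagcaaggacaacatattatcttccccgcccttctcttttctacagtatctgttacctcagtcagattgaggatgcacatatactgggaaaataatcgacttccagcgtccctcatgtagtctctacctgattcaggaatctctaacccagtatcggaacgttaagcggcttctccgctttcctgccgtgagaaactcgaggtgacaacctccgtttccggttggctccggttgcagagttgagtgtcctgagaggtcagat
SDHB (chr1:17053983-17054282, minus strand): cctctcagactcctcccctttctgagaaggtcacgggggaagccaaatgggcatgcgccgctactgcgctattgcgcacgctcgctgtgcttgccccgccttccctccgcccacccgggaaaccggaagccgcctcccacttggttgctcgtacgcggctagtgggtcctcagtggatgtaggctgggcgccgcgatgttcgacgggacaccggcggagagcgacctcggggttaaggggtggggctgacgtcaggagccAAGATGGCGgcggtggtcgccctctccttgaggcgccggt
UQCRC1 (chr3:48609597-48609896, minus strand): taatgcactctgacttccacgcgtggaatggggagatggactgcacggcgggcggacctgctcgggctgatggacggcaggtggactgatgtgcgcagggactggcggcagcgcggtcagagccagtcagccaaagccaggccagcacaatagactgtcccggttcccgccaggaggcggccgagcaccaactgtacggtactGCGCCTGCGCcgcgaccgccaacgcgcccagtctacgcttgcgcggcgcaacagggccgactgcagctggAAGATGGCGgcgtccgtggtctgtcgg
The motif searched for NRF1 was GCGCA, any base, then GCGC, and that for YY1 was AANATGGCG, each on both strands. UQCRC1 holds an NRF1 match starting 47 bases before the transcription start and a YY1 match starting 23 bases after it, and SDHB holds a YY1 match starting 10 bases after it. COX7C and NDUFB3 hold neither string in these windows. The table holds 32 promoters of 29 of the nuclear genes, of which 6 hold the NRF1 string and 12 the YY1 string, while 5.78% and 3.19% of all 35116 promoters in the table hold them. NDUFA9, UQCRC1 and UQCRFS1 hold both. A match is a description of the letters and shows no binding.

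The 13 mitochondrially encoded genes took 2.82%, 3.14% and 3.08% of the counts in BT-549 MUC1shRNA, against 2.37%, 2.75% and 3.54% in BT-549 CshRNA. In SUM149 they took 4.26%, 4.88% and 4.14% with MUC1shRNA, against 5.11%, 4.64% and 4.20% with CshRNA. The arms overlapped in both lines. The 36 nuclear genes together took 0.406% to 0.489% in all 12 libraries. In bulk RNA, fewer transcripts per mitochondrial genome and fewer mitochondrial genomes per cell cannot be told apart.

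In BT-549 edgeR called 0 of 13 mitochondrial genes, where 33.3% of all 13200 genes tested were called (16.8% higher and 16.5% lower). Of the 13, 0 had an unadjusted p below 0.05, and DESeq2 and limma-voom also called 0. Their median log2 fold change was 0.034 and the range was -0.12 to 0.22. This count depended on 1 library. Over all genes, 4398 were called with all BT-549 libraries, and 2716 to 4470 when single libraries were left out. BT-549 CshRNA 3 had the highest level of all 3 CshRNA libraries for every one of the 13 genes, and without it 8 of 13 were called, all higher: MT-ND3 (0.32), MT-ND4 (0.34), MT-ND4L (0.32), MT-ND6 (0.20), MT-CYB (0.41), MT-CO1 (0.21), MT-ATP6 (0.27) and MT-ATP8 (0.35). MT-CYB, which encodes cytochrome b of complex III, shows the pattern: it stood at 3338, 3722 and 3686 CPM in BT-549 MUC1shRNA, against 2494, 2890.4 and 3809 CPM in BT-549 CshRNA. The third CshRNA library lies above all 3 MUC1shRNA libraries, and the other two lie below them. The cause of the spread of that library was not tested.

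In SUM149, edgeR called 3 of 13 mitochondrial genes, all lower, where 56.5% of all 14178 genes tested were called (27.6% higher and 28.9% lower). The median of the 13 was -0.15, against -0.034 over all genes. MT-CYB (GRCh38 chromosome M, 14747 to 15887, plus strand) stood at 1471, 1758 and 1463 CPM in SUM149 MUC1shRNA, against 2346, 2092 and 2037 CPM in SUM149 CshRNA. The groups did not overlap, the log2 fold change was -0.45 (SE 0.08, adjusted p = 3.7e-04), and the call held under every setting tried. MT-ND3, a small complex I subunit, stood at 433, 649 and 485 CPM with MUC1shRNA and 778, 704 and 579.9 CPM with CshRNA, at -0.38 (SE 0.13, adjusted p = 0.025). MT-ND6, the protein-coding gene read from the opposite strand, stood at 693, 921 and 778 CPM with MUC1shRNA and 1136, 1075 and 829 CPM with CshRNA, at -0.33 (SE 0.12, adjusted p = 0.027). Both had overlapping groups, and their calls ended without any 1 of 3 and any 1 of 4 of the 6 libraries. MT-ND1 and MT-ND2, complex I subunits and the first protein-coding genes in order along the genome, had positive fitted values of 0.18 (adjusted p = 0.066) and 0.19 (adjusted p = 0.067). DESeq2 called both higher (adjusted p = 0.029 and 0.027). DESeq2 did not call MT-ND3 (adjusted p = 0.15) or MT-ND6 (adjusted p = 0.13), so its 3 calls were 2 higher and 1 lower. With RLE size factors or at equal depth 2 were called higher and 3 lower. Over all genes, 8017 were called with all SUM149 libraries, and 6866 to 8306 when single libraries were left out. Without SUM149 CshRNA 3, 7 of 13 mitochondrial genes were called lower, without MUC1shRNA 2 it was 5, and without MUC1shRNA 1 it was MT-CYB alone. Without CshRNA 1 or MUC1shRNA 3, MT-CYB was lower and MT-ND1 and MT-ND2 were higher. The complex IV core subunits MT-CO1, MT-CO2 and MT-CO3 and the ATP synthase subunits MT-ATP6 and MT-ATP8 had fitted values from -0.29 to -0.04 and were not called with all libraries. The complex I subunits MT-ND4, MT-ND4L and MT-ND5 had values of 0.08, 0.02 and -0.04. The large ribosomal RNA MT-RNR2 was lower, at -0.31 (SE 0.07, adjusted p = 0.0023).

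MT-ATP8 is shown because its end is also the start of MT-ATP6. The 46 shared bases are in capitals in the sequence from the GENCODE transcripts on GRCh38, and a read that lies in them cannot be given to either gene alone.
MT-ATP8 (chrM:8366-8572, plus strand): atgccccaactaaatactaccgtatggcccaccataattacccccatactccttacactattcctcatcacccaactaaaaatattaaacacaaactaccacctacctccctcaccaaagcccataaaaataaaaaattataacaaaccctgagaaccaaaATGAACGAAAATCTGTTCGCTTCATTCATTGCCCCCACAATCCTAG
The 12 protein-coding genes read from the same strand were set in order along the genome. Their fold changes had correlations of opposite sign with that order in the lines. In BT-549, Spearman's rho between position in the order and log2 fold change was 0.69, with MT-ND1 at -0.12 and MT-CYB, the last gene, at 0.22. In SUM149 rho was -0.41, with MT-ND1 at 0.18 and MT-CYB at -0.45. These coefficients are over 12 genes that share the same libraries and precursor, and they are given as a description. The 2 mitochondrial ribosomal RNAs were left out of them, with fitted values of -0.31 and -0.19 in SUM149 and -0.099 and 0.010 in BT-549.

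**Figure D4:**
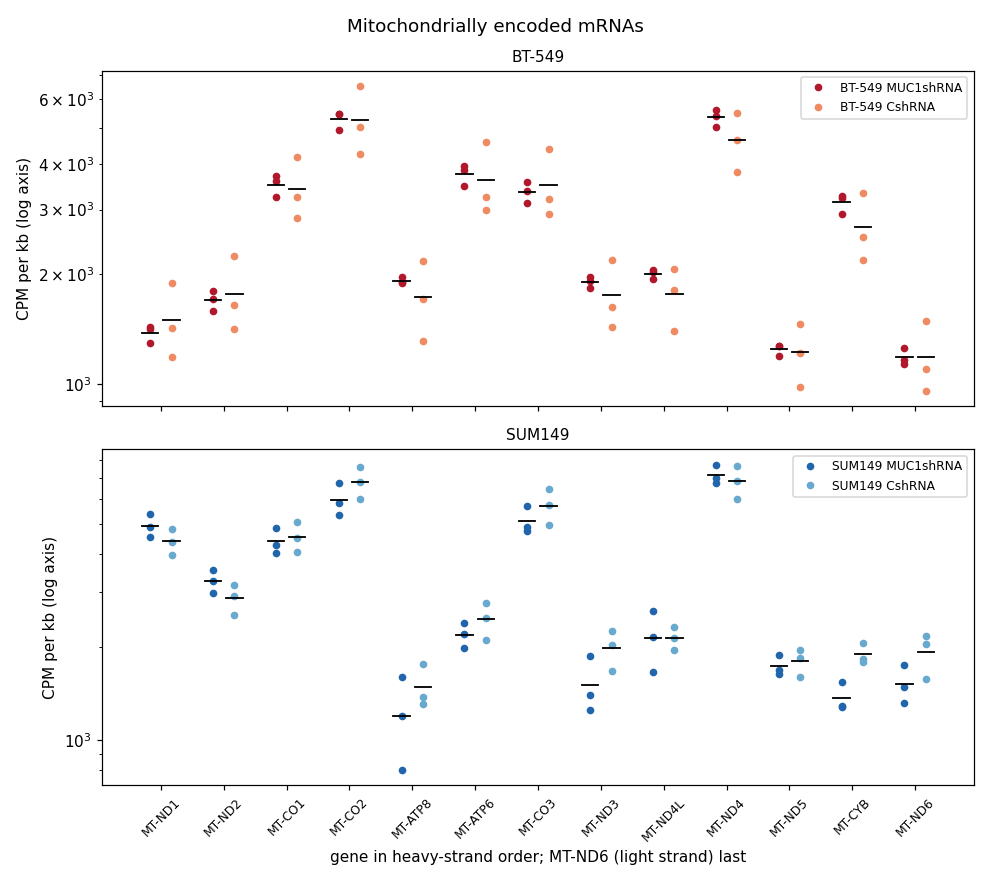
Level in CPM per kilobase (vertical axes, log scale) of the 13 mitochondrially encoded genes in BT-549 (top) and SUM149 (bottom). Points are libraries and horizontal lines are means of 3 libraries. In BT-549 the CshRNA points spread more widely than the MUC1shRNA points, and in SUM149 the MT-CYB points of MUC1shRNA lie below those of CshRNA.

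Per kilobase of gene length, MT-ND4 and MT-CO2 had the highest levels of the 13 mitochondrially encoded genes in each group. These levels are per gene and do not rank mRNA molecules. MT-ND4L shares 7 bases with MT-ND4, and MT-ATP8 shares 46 with MT-ATP6. MT-ND4 averaged 5362 ± 288 CPM per kb in BT-549 MUC1shRNA and 4654 ± 850 CPM per kb in BT-549 CshRNA, and 7168 ± 518 CPM per kb in SUM149 MUC1shRNA and 6843 ± 826 CPM per kb in SUM149 CshRNA (SD, n = 3 each). MT-CO2 averaged 5301 ± 294 CPM per kb in BT-549 MUC1shRNA and 5280 ± 1149 CPM per kb in BT-549 CshRNA, and 5977 ± 737 CPM per kb in SUM149 MUC1shRNA and 6818 ± 804 CPM per kb in SUM149 CshRNA (SD, n = 3 each). In each group the mean ± SD ranges of MT-ND4 and MT-CO2 overlap. MT-ND6 and MT-ND5 were the lowest in BT-549 MUC1shRNA, at 1184 ± 60.0 and 1246 ± 41.8 CPM per kb, and MT-ATP8 and MT-CYB the lowest in SUM149 MUC1shRNA, at 1202 ± 400 and 1371 ± 147 CPM per kb (SD, n = 3). The library kit selects polyadenylated RNA, so levels also depend on each mRNA's tail.

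The nuclear genome holds copies of mitochondrial genes, and reads that fit both places could be counted for the copy or dropped. Counts at the copies were 14.6% of the MT-ATP6 counts in BT-549 MUC1shRNA and 13.7% in BT-549 CshRNA, and 38.6% in SUM149 MUC1shRNA and 40.8% in SUM149 CshRNA. For MT-ND1 they were 9.25% in SUM149 MUC1shRNA and 9.61% in SUM149 CshRNA, and under 0.03% in both BT-549 groups. For MT-ND2 they were 2.78% to 3.18% in all 4 groups. Adding the copies' counts to their genes, an alternative chosen after these values were seen, ended 1 call among mitochondrial genes in the 4 comparisons, that of MT-ATP6 between the lines, described below.

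The responses of the lines were compared by testing the difference of the log2 fold changes, BT-549 minus SUM149. For 11 of 36 nuclear genes it was called, 6 positive and 5 negative, where 39.6% of 15649 genes were called (19.5% positive and 20.1% negative), with a median of 0.060 against 0.043 over all genes. NDUFV1 differed by 0.50 (SE 0.09, adjusted p = 3.6e-04), NDUFB5 by 0.45 (adjusted p = 0.0016) and UQCRC1 by 0.35 (adjusted p = 0.0029), all genes that fell in SUM149 and were not called in BT-549. COX5B differed by 0.40 (adjusted p = 0.0077), UQCRQ by 0.43 (adjusted p = 0.014) and SDHC by 0.26 (adjusted p = 0.017). The negative differences were NDUFB3 at -0.53 (adjusted p = 0.0068), COX7C at -0.46 (adjusted p = 0.013) and NDUFA2 at -0.45 (adjusted p = 0.026), which rose in both lines and by more in SUM149, and NDUFA8 at -0.46 (adjusted p = 0.0069) and SDHB at -0.26 (adjusted p = 0.015). The calls of NDUFA2 (without any 1 of 7 of 12 libraries), UQCRQ (any 1 of 2), SDHB (SUM149 MUC1shRNA 3) and COX7C (SUM149 MUC1shRNA 3) ended when a library was left out. Of 13 mitochondrial genes, MT-CYB was called, at 0.69 (SE 0.17, adjusted p = 0.0047), and this held without any library. Without BT-549 CshRNA 3 there were 5 mitochondrial calls, and without SUM149 CshRNA 3 or SUM149 MUC1shRNA 2 there were 3. Without BT-549 CshRNA 1 there were 2.

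Among the 49 genes listed, NDUFA2 and MT-ND1 had the largest differences between control cells, in opposite directions. Comparing BT-549 CshRNA with SUM149 CshRNA, 30 of 36 nuclear genes were called, 17 higher and 13 lower, where 82.8% of 15155 genes were called (39.5% higher and 43.3% lower), with a median of 0.10 against -0.067 over all genes. Cell line, medium and library preparation cannot be told apart in this comparison, and it uses the control libraries of the comparisons above. Upper-quartile scaling moved the median of all genes in it by -0.14 and turned no direction of a called respiratory gene. NDUFA2 stood at 33.2, 31.6 and 36.5 CPM in BT-549 CshRNA, against 11.1, 10.6 and 13.7 CPM in SUM149 CshRNA, a log2 fold change of 1.52 (SE 0.11, adjusted p = 1.1e-06). COX7C, at 1.38 (SE 0.11, adjusted p = 1.6e-06), and NDUFA1, an accessory subunit of the membrane arm, at 1.35 (SE 0.11, adjusted p = 1.8e-06), were also higher in BT-549 CshRNA, and 44.5% of the exon bases of NDUFA1 lie opposite RNF113A. COX5A, a matrix-side subunit of complex IV, stood at 88.3, 91.3 and 92.1 CPM in BT-549 CshRNA, against 182, 197 and 204 CPM in SUM149 CshRNA, at -1.10 (SE 0.06, adjusted p = 1.6e-07). NDUFB5 was lower, at -0.77 (SE 0.08, adjusted p = 9.7e-06). The groups did not overlap for any of these 5 genes.

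Within complex I, 7 of 16 were higher and 7 lower in BT-549 CshRNA. The core subunits NDUFS1 (-0.40), NDUFS3 (-0.31), NDUFS8 (-0.67) and NDUFV1 (-0.54) were lower, while NDUFS7 (0.85) was higher. The accessory subunits NDUFB3 (0.83), NDUFB8 (0.70) and NDUFB10 (0.45) were higher and NDUFA10 (-0.56) was lower. In complex III, UQCRC1 (-0.47) and UQCRC2 (-0.46) were lower and UQCRB (0.46), UQCRH (0.57), UQCRQ (0.52) and CYC1 (0.61) higher. In complex IV, NDUFA4 (0.69), COX6C (0.67), COX7A2 (0.65) and COX4I1 (0.52) were higher and COX5B (-0.27) lower. In complex II, SDHA was at 0.17 (adjusted p = 0.014), SDHD at -0.36 (adjusted p = 0.026), and SDHB and SDHC were not called. The SDHA value was 0.034 (adjusted p = 0.58) with upper-quartile scaling and 0.074 (adjusted p = 0.21) with a filter of 5 CPM in 3 libraries, and that of NDUFB9, 0.23 otherwise, was 0.091 (adjusted p = 0.25) and 0.13 (adjusted p = 0.091), so neither was called there. The calls of SDHA, SDHD, NDUFA8, NDUFB9 and COX6A1 also ended when single libraries were left out.

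**Figure D5:**
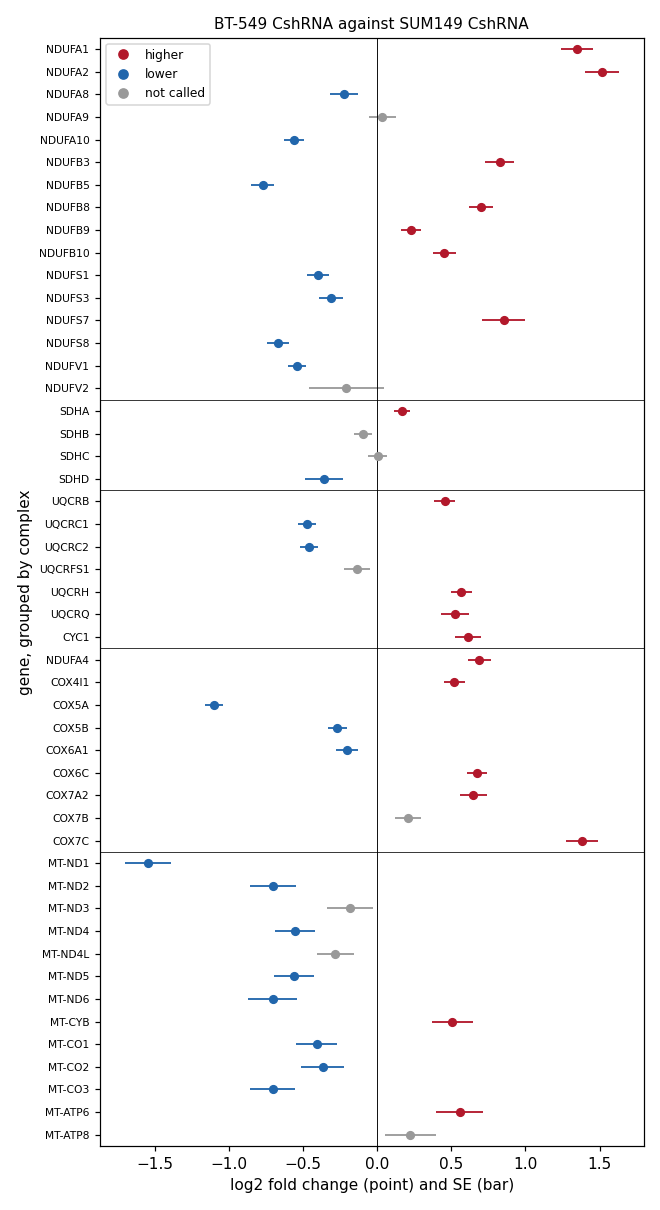
Log2 fold change (horizontal axis) of BT-549 CshRNA against SUM149 CshRNA for the 49 genes, grouped by complex; points are fitted values, bars are SE and colours show the edgeR call. Values run from -1.55 for MT-ND1 to 1.52 for NDUFA2.

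Of the mitochondrial genes, 10 of 13 differed between the control cells, 8 lower and 2 higher in BT-549 CshRNA, with a median of -0.41, where 82.8% of all genes were called. MT-ND1 stood at 1132, 1359 and 1811 CPM in BT-549 CshRNA, against 4599, 4175 and 3797 CPM in SUM149 CshRNA, at -1.55 (SE 0.16, adjusted p = 9.4e-06). No overlap was seen, and with the counts of nuclear copies added the fold change was -1.68. MT-CYB was higher in BT-549 CshRNA at 0.51 (SE 0.14, adjusted p = 0.007). MT-ATP6 was also higher at 0.56 (SE 0.16, adjusted p = 0.0088), but with the nuclear copies added its fold change was 0.25 (adjusted p = 0.18) and it was not called. MT-ND2 (-0.70), MT-ND4 (-0.56), MT-ND5 (-0.56), MT-ND6 (-0.71) and MT-CO3 (-0.70) were lower under every setting tried. The calls of MT-CO1 (-0.41) and MT-CO2 (-0.37) ended without any 1 of 3 and any 1 of 4 of the 6 libraries.

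Other genes of the pathway were counted from 12 lists of subunits, assembly factors and regulators, whose median log2 fold changes ran from -0.13 to 0.33 in BT-549 and from -0.25 to 0.19 in SUM149. Their counts stand beside shares over all genes of 16.8% higher and 16.5% lower in BT-549 and of 27.6% higher and 28.9% lower in SUM149. Of 20 further complex I subunits tested, 3 were called in BT-549, all higher, among them NDUFA5 at 0.48 (SE 0.11) and NDUFC1 at 0.34 (SE 0.10). In SUM149 5 were higher and 1 lower, with NDUFA12 at 0.50 (SE 0.10) and NDUFS5 at 0.38 (SE 0.07) among those higher. Of 4 further complex III and IV subunits, COX6B1 was called in both lines, lower in BT-549 at -0.23 (SE 0.08) and higher in SUM149 at 0.41 (SE 0.10), and UQCR10 was higher in SUM149 at 0.62 (SE 0.10). The difference of the COX6B1 responses was -0.62 (adjusted p = 0.0023). Of 18 nuclear ATP synthase genes, 2 were higher and 3 lower in BT-549 (ATP5ME 0.21, ATP5MD 0.18, ATP5F1D -0.29, ATP5MC1 -0.25), and 1 was higher and 1 lower in SUM149 (ATP5MC1 0.44, ATP5MC2 -0.36). The electron carrier cytochrome c, CYCS, was lower in SUM149 at -0.38 (SE 0.07), and ETFDH, which passes electrons to ubiquinone, was higher in BT-549 at 0.28 (SE 0.06). COX7A2L, which takes part in joining complexes III and IV, was higher in BT-549 at 0.33 (SE 0.05).

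Over all genes, 16.8% were called higher and 16.5% lower in BT-549, and 27.6% higher and 28.9% lower in SUM149. Of 23 complex IV assembly factors, 3 were higher in BT-549, among them COX18 at 0.46 (SE 0.10) and SURF1 at 0.42 (SE 0.14). In SUM149 7 of these factors were higher and 5 lower. There, SCO1, a copper chaperone, was at 0.59 (SE 0.06), COA3 at 0.51 (SE 0.14), COX19 at -1.21 (SE 0.12) and COX20 at -1.0 (SE 0.30). The COX20 value rests on 9, 7 and 10 counts in SUM149 MUC1shRNA and 37, 49 and 43 in SUM149 CshRNA, and 72% of its exon bases lie opposite HNRNPU. Of 10 complex II and III assembly factors, edgeR called 0 in BT-549, with 3 at an unadjusted p below 0.05 and 0 called by DESeq2 or limma-voom. In SUM149 3 were higher and 3 lower: SDHAF2, which helps attach the flavin to SDHA, stood at 0.95 (SE 0.14), SDHAF3 at 0.62 (SE 0.10), SDHAF4 at -1.20 (SE 0.10) and TTC19 at -0.59 (SE 0.07). COX19 shares exon bases with ADAP1, and SDHAF2 with AP003108.2, on the same strand. SDHAF4 had 10.5, 10.4 and 10.7 CPM in SUM149 MUC1shRNA, against 24.0, 23.9 and 25.0 CPM in SUM149 CshRNA. Of 14 complex I assembly factors, 1 was higher and 2 lower in BT-549 (TMEM126B 0.32, ECSIT -0.35, NDUFAF6 -0.23), and 3 were higher and 1 lower in SUM149 (NDUFAF6 0.63, NDUFAF1 0.52, NUBPL -0.33).

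Genes that express the mitochondrial genome included the widest change of these lists in BT-549. HSD17B10, which is part of the enzyme that cuts tRNAs out of mitochondrial precursors, stood at 114, 121 and 114 CPM in BT-549 MUC1shRNA, against 35.5, 35.8 and 36.8 CPM in BT-549 CshRNA, at 1.69 (SE 0.06, adjusted p = 2.0e-07). In SUM149 it stood at 133, 155 and 148 CPM with MUC1shRNA and 111, 115 and 118 CPM with CshRNA, at 0.35 (SE 0.07, adjusted p = 8.2e-04). The groups overlapped in neither line, and the responses differed by 1.35 (SE 0.09, adjusted p = 3.3e-08). Of the 23 genes in the list, 4 were higher and 7 lower in BT-549, with TFB1M at 0.33, TWNK, the mitochondrial DNA helicase, at -0.40 and ELAC2 at -0.34. In SUM149 12 were higher and 2 lower, where 27.6% and 28.9% of all genes were, with the elongation factor TEFM at 0.79, FASTKD5 at 0.72, MTPAP, the mitochondrial poly(A) polymerase, at -0.33 and SUPV3L1 at -0.18. Of 78 mitochondrial ribosomal protein genes, 9 were higher and 10 lower in BT-549, where 16.8% and 16.5% of all genes were (MRPS10 0.35, MRPL1 0.33, MRPL17 -0.53, MRPS2 -0.47), and 28 were higher and 8 lower in SUM149, where 27.6% and 28.9% of all genes were (MRPS24 1.36, MRPL14 0.87, MRPS10 -0.67, MRPL12 -0.47). MRPS10 was thus called in opposite directions, and the difference of its responses was 1.04 (adjusted p = 4.6e-07). The MRPS24 value (SE 0.42) rests on 5, 17 and 15 counts in SUM149 MUC1shRNA and 19, 8 and 9 in SUM149 CshRNA. Scaled to library size, those groups overlapped.

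PPARGC1A, which encodes the coactivator PGC-1alpha known to drive respiratory gene transcription, stood at 6.95, 7.68 and 7.80 CPM in SUM149 MUC1shRNA, against 82.2, 75.5 and 68.9 CPM in SUM149 CshRNA. The groups did not overlap and the log2 fold change was -3.32 (SE 0.11, adjusted p = 9.1e-11). In BT-549 it had 10 counts over the 3 MUC1shRNA libraries and 5 over the 3 CshRNA libraries, too few to test, with a depth-scaled ratio of 2.01 and an exact 95% interval of 0.626 to 7.5 that covers counting error only. Its relative PPARGC1B was lower in both lines, at -0.69 (SE 0.10) in BT-549 and -0.41 (SE 0.10) in SUM149, and PPRC1 was higher in SUM149 at 0.38 (SE 0.08). Of 10 regulators, 1 was called in BT-549 of 9 tested, where 33.3% of all genes were called. In SUM149 5 regulators were called, 1 higher and 4 lower, where 56.5% of all genes were called (27.6% higher and 28.9% lower).

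The other lists were also compared between control cells, where 39.5% of all genes were higher and 43.3% lower. In BT-549 CshRNA, 14 of 20 further complex I subunits were higher than in SUM149 CshRNA and 4 lower (NDUFB2 2.46, NDUFA3 2.14, NDUFV3 -1.37, NDUFA5 -0.54), and 13 of 18 ATP synthase genes were higher and 4 lower (ATP5F1E 0.94, ATP5MPL 0.87, ATP5ME -0.48, ATP5MC3 -0.27). Of 23 complex IV assembly factors 11 were higher and 10 lower (SCO2 1.47, HIGD2A 1.17, COX18 -2.55, COX20 -1.85). SCO2 shares exon bases with a second annotated SCO2 gene on the same strand, and COX20 had 4, 10 and 13 counts in BT-549 CshRNA. Of 14 complex I assembly factors 4 were higher and 5 lower (ACAD9 1.29, FOXRED1 0.53, NDUFAF5 -2.07, TIMMDC1 -1.31). Of 23 genes that express the mitochondrial genome 7 were higher and 10 lower (SSBP1 1.42, SLIRP 0.98, POLG -1.80), and of 78 mitochondrial ribosomal protein genes 34 were higher and 22 lower (MRPS6 1.62, MRPL33 1.58, MRPL12 -1.78, MRPL19 -1.55). Of 10 complex II and III assembly factors 2 were higher and 5 lower (UQCC1 1.32, SDHAF2 0.42, SDHAF4 -1.73, SDHAF1 -0.87), and of 10 regulators 1 was higher and 6 lower (PPRC1 0.48, ESRRA -1.47). Both COX6B1 (1.15) and UQCR10 (0.97) were higher, as were the carriers CYCS (0.78) and ETFDH (0.74), while ETFA was lower (-0.61). Among tissue-restricted isoforms, COX7A1, the heart and muscle form of subunit VIIa, had 297 counts over the BT-549 CshRNA libraries and 10 over the SUM149 CshRNA libraries, a depth-scaled ratio of 33.4 with an exact 95% interval of 17.9 to 70.3. COX6B2, the testis form of subunit VIb, had 1 and 112 counts, a ratio of 0.01 with an interval of 0.000252 to 0.057. C15orf48 was higher in BT-549 CshRNA by 5.02 (SE 0.26) and PPARGC1A had 5 counts against 5256. These intervals cover counting error only.

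Among the 36 nuclear genes, Spearman's rho between log2 fold change and median transcript GC content was -0.36 in BT-549 and -0.37 in SUM149. Over all protein-coding genes tested it was -0.33 and -0.11. With transcript length, rho was -0.24 in BT-549 and -0.21 in SUM149 for the nuclear genes and 0.033 and 0.0048 over all protein-coding genes. Genes within a library share its depth and preparation, so these are descriptions. The part of base composition in the calls was not tested.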

How the data were processed

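Per the labels' protocols, Trizol-extracted RNA went into TruSeq Stranded mRNA libraries. The deposited table holds raw counts per Ensembl gene made by the authors. STAR 2.7.0, CASAVA 1.8.2, DESeq2 1.24.0 and GRCh38.p7 are listed, without roles, per the submitters' processing notes. The read counter, its strand setting and the gene models are not given in the labels or notes used here. Column names matched the sample descriptions for all 12 libraries.

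Names, coordinates and overlaps came from GENCODE release 29 (57433 of 58037 rows matched by identifier), and 45 pseudoautosomal rows of chromosome Y were left out. Promoters came from RefSeq. Separate fits per line used edgeR 4.0.16 (R 4.3.3): TMM scaling, filterByExpr, quasi-likelihood test, Benjamini-Hochberg adjustment over all genes tested, threshold 0.05. The difference between responses used all 12 libraries. The SE is the absolute log2 fold change divided by the root of the F statistic. The scripts were tested on simulated data.

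Members and lists were chosen with earlier results of these data known. Named by rule were all mitochondrial members, the 3 smallest adjusted p and the largest called change per nuclear complex, NDUFA4 with its paralogs, and up to 2 called genes per direction in each context list. Other genes were named after their values were seen. Replicates were no copies of each other (chi-square per degree of freedom 1.85 to 14.5). Alternatives were RLE and upper-quartile scaling, mitochondrial genes left out of library sizes, other filters, DESeq2 1.42.0, limma-voom (limma 3.58.1), 1 fit of all libraries, a replicate block, equal depth, leaving out each library and, added after seeing the data, nuclear copies added.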

Additional observations from a re-analysis of the deposited data

Results flagged for a closer look

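For the genes given here the edgeR test of the difference between the responses of the lines, BT-549 minus SUM149, was past an adjusted p of 0.05. Values in parentheses are differences of log2 fold changes. Among the respiratory chain genes they were MT-CYB (0.69), NDUFV1 (0.50), NDUFB5 (0.45), NDUFB3 (-0.53), NDUFA2 (-0.45), NDUFA8 (-0.46), SDHB (-0.26), SDHC (0.26), UQCRC1 (0.35), UQCRQ (0.43), COX5B (0.40) and COX7C (-0.46).

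Among the paralogs and isoforms they were NDUFA4L2 (4.04), C15orf48 (-4.06) and COX6B2 (3.02). These 3 fitted values rest on few counts: NDUFA4L2 had at most 2 counts per library in SUM149 MUC1shRNA, C15orf48 at most 9 in SUM149 CshRNA, and COX6B2 at most 5 in BT-549 MUC1shRNA and 1 in BT-549 CshRNA. The size of each depends on the prior count, and for COX6B2 a difference of responses cannot be read from them. Among the other subunits they were NDUFA5 (0.49), NDUFC1 (0.40), NDUFS5 (-0.28), NDUFAB1 (-0.25), COX6B1 (-0.62), UQCR10 (-0.59) and ATP5MC1 (-0.68). Assembly factors comprised NUBPL (0.47), TMEM126B (0.34), NDUFAF6 (-0.85), NDUFAF8 (-0.51), SDHAF4 (1.43), TTC19 (0.77), SDHAF2 (-0.76), BCS1L (-0.41), COX19 (0.98), COX15 (0.65), SCO1 (-0.62) and COA4 (-0.34). COX19 and SDHAF2 share exon bases with other genes on the same strand.

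Genes of mitochondrial expression comprised HSD17B10 (1.35), GRSF1 (0.20), TEFM (-0.90), PNPT1 (-0.74), MRPS10 (1.04), MRPL2 (0.25), MRPS12 (-0.95) and MRPL20 (-0.70). Regulators and carriers comprised PPARGC1A (4.30), GABPB1 (0.55), PPRC1 (-0.50), ETFDH (0.49) and CYCS (0.39), but PPARGC1A had only 10 and 5 counts in BT-549 MUC1shRNA and CshRNA and passed the filter through SUM149, so its value is no evidence that the lines' responses differed.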

How the results depend on the processing

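In BT-549 the 8 nuclear calls were 5 with DESeq2 or upper-quartile scaling, 4 in 1 fit of all libraries, and 1 to 8 when single libraries were left out. The 0 mitochondrial calls of BT-549 were 3 with no filter and 0 to 8 without single libraries, and the MT-ND6 value, -0.0032 with all libraries, ran from -0.14 to 0.20, the highest without BT-549 CshRNA 3. The 4398 calls over all genes in BT-549 were 2716 to 4470 without single libraries, the fewest without MUC1shRNA 1. In SUM149 the 3 mitochondrial calls were 5 with RLE size factors or at equal depth and 1 to 7 without single libraries. The 15 nuclear calls were 10 to 14 without single libraries. Upper-quartile scaling, which shifted the median of all genes in SUM149 by -0.058, added lower calls there. They were SDHA (-0.16), NDUFA10 (-0.19), NDUFS8 (-0.22), UQCRC2 (-0.17) and COX6A1 (-0.20), while COX7A2 lost its higher call (adjusted p = 0.17). The balance of higher and lower nuclear calls in SUM149 thus depended on the scaling. For the difference between responses, the 1 mitochondrial call was 2 with limma-voom, 6 with no filter and 1 to 5 without single libraries, and the 11 nuclear calls were 8 to 12. Between control cells the 30 nuclear and 10 mitochondrial calls were 27 to 29 and 8 to 12.

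Same-numbered libraries did not deviate together (correlations of 0.038, -0.145 and -0.128 in BT-549 and -0.084, 0.097 and 0.086 in SUM149), so the numbers were not taken as pairs. With a replicate block there was 1 nuclear call in BT-549 and there were 6 mitochondrial calls in SUM149. No filter shifted the median of all genes by -0.17 in SUM149 and by -0.23 between control cells. Of single-gene values under the other settings, 52 gained a call and 90 lost one, while 3439 kept the same call or stayed uncalled in either direction. Without single libraries 46 gained a call in the same direction, 200 lost one, and MT-ND6 in BT-549 gained one with a change of sign. Signs of values that stayed uncalled were not counted. The causes were not tested. SUM149 MUC1shRNA depth limits genes with few counts, such as NDUFV2, NDUFA4L2, MRPS24 and COX20.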
